A study of Mus musculus with 38 samples.

Results

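The replication-dependent histone genes of mouse chromosome 13 form one large cluster in 2 parts, and the chromatin of both parts was described here in adult liver. The left part runs from chr13:21780000-22150000 and the right part from chr13:23600000-23880000 on build mm9. They measure 370 and 280 kb and are separated by a segment of 1450 kb. All peaks of 6 histone marks that overlapped either part by 1 bp or more were taken, which gave 371 of the 384017 peaks in 12 peak lists. The segment between, used for comparison, held 125.

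Chromatin immunoprecipitation with sequencing was done on livers from 8-week-old mice of both sexes of CD-1, a stock that is not inbred. The labels name no genetic change and no treatment. H3K4me3 and H3K4me1 had 4 male and 3 female libraries, H3K27ac and H3K27me3 had 3 of each sex, and H3K36me3 and H3K9me3 had 2 of each sex. Within each mark and sex the libraries carried 1 identical peak file, so each list stands for pooled libraries, no value has a spread between animals, and no test of its own was run. Differences between the male and female lists are therefore descriptions of 2 pooled lists.

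Replication-dependent histone genes encode the core histones H2A, H2B, H3 and H4 and the linker histone H1, which binds the DNA entering and leaving the nucleosome. The genes lack introns, their messages end in a stem-loop in place of a poly(A) tail, and they are transcribed mainly when DNA is replicated. Most hepatocytes of an adult liver are not dividing. H3K4me3 lies at promoters, H3K27ac at active promoters and enhancers, H3K4me1 at enhancers and promoter flanks, and H3K36me3 over transcribed gene bodies. H3K27me3 is the mark of Polycomb silencing and H3K9me3 a mark of heterochromatin.

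The RefSeq gene order (assembly GRCm38.p6) lists 24 histone genes from H2bc13 to H2bc11, which include the pseudogene H2ac14, and 29 from H4c8 to H1f1. The left stretch also holds 31 tRNA genes, Zfp184, Pom121l2 and Prss16, and the right stretch holds 0 tRNA genes and Hfe, the hemochromatosis gene. The table of promoter sequences had an entry for 49 of these 53 histone genes. To place promoters on mm9, aligned reads of a control IgG library were used, and a promoter was placed where a whole read of 35 bases occurred in it and in no other promoter. This placed 19 histone promoters, 3 in the left and 16 in the right part. When reads shared by promoters that overlap each other were also accepted, as in the divergent pairs of H2A and H2B genes, 28 were placed, 11 left and 17 right, and 21 of the 49 were not. All 27 spacings between neighbouring placed histone promoters were equal in both builds. Below, a promoter that no read placed is located, where so stated, by assuming that its spacing to its placed neighbours is equal too.

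Promoter sequences of histone genes carry short words that bind known factors, and the promoters with the most and the least H3K4me3 are shown here so that these can be compared. They run from 250 bases before to 50 bases after the transcription start, 5′ to 3′, from RefSeq on GRCm38.p6. Capitals mark the octamer word ATTTGCAT, bound by Oct1 (Pou2f1), the word CCAAT, bound by NF-Y, the TATA word TATAAA and the H1 box word AAACACA, each on either strand. No word overlapped another in these promoters. Of each class the placed promoter whose H3K4me3 peak had the highest tag density in the male list is given first, with H2bc9 for H2B because H2bc6 shares its peak with H1f4. These are H1f4 at chr13:23622509-23622808 (minus strand), H2ac6 at chr13:23683910-23684209 (minus strand), H2bc9 at chr13:23543395-23543694 (minus strand), H3c6 at chr13:23562336-23562635 (minus strand) and H4c8 at chr13:23530794-23531093 (plus strand). H2ac4 at chr13:23750838-23751137 (plus strand) and H4c2 at chr13:23756687-23756986 (plus strand) lay in no H3K4me3 peak of either list.
H1f4: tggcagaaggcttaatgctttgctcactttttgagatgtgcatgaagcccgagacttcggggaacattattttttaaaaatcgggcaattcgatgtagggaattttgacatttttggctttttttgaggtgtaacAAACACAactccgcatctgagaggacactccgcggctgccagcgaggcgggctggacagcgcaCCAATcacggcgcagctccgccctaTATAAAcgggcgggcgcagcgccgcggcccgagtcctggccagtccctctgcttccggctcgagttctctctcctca
H2ac6: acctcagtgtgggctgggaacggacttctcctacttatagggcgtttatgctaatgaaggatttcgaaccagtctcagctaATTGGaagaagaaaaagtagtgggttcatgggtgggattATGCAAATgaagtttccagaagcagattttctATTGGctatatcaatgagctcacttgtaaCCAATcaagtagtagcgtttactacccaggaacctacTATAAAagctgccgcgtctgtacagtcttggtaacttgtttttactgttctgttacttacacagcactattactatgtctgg
H2bc9: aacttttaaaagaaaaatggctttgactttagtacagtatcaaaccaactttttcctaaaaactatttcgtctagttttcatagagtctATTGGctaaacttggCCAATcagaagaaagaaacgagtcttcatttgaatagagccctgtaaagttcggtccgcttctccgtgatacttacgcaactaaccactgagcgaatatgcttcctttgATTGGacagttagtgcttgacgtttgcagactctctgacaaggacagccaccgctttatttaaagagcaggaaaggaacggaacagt
H3c6: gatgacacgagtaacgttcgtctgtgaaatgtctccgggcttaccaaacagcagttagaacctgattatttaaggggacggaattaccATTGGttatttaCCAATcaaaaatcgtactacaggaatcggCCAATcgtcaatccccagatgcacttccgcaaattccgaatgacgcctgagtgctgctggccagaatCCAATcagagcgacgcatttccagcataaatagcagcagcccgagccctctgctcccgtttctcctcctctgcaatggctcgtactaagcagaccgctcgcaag
H4c8: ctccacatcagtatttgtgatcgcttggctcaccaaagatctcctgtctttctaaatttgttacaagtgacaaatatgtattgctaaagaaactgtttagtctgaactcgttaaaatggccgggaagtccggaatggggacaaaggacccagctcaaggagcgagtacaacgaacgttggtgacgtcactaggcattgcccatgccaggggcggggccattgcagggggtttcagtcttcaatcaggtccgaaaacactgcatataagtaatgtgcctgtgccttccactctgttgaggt
H2ac4: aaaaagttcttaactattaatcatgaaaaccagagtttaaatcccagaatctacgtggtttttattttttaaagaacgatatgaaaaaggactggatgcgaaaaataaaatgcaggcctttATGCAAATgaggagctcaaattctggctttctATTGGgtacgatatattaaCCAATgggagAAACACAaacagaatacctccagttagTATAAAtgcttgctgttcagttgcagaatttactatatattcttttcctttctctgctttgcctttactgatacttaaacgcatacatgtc
H4c2: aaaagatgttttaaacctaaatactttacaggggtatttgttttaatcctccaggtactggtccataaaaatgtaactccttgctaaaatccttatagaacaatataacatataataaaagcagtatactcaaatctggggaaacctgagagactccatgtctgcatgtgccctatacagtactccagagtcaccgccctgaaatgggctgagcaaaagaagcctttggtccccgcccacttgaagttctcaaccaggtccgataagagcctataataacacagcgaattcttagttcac

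CCAAT occurred in all 6 H1, 13 H2A, 14 H2B and 7 H3 promoters of this chromosome in the table, and in 3 of 11 H4 promoters. That is 43 of 51 promoters (84.3%), a number that includes H2bc1 and H2ac1 outside the 2 parts, against 37.4% of all 32851 promoters. TATAAA occurred in 31 of the 51 (60.8%) against 13.6%. The octamer was in 10 of the 51 (19.6%), 5 H2A and 5 H2B promoters, against 1.74%. The H1 box word was in 5 of 6 H1 promoters and 9 of the 51 (17.6%), against 7.18%. Matches are to exact letters only. Divergent H2A and H2B promoters overlap, so 1 site can count in both of a pair. This holds for the octamer of H2ac12 and H2bc12, of H2ac8 and H2bc8, and of H2ac1 and H2bc1. H2ac4, without H3K4me3, carries the octamer, CCAAT and TATAAA like H2ac6, and neither H4c8 nor H4c2 carries any of the 4 words.

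H3K4me3 and H3K4me1 were dense over both parts of the cluster. H3K4me3 gave 45 male and 42 female peaks, or 69.2 and 64.6 per Mb, against 8.28 and 8.97 in the segment between and 6.67 and 7.89 over the autosomes. H3K4me3 peaks covered 9.14% of the left part in the male list and 7.36% in the female list, and 15.0% and 14.2% of the right part. The autosomal share was 1.36% in either list. H3K4me1 covered 28.5% and 28.4% of the right part, 15.1% and 15.3% of the left part and 6.04% and 7.10% of the autosomes. These shares were not corrected for gene density, and the RefSeq order puts 53 histone genes into the 650 kb of the 2 parts.

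H3K27ac separated the 2 parts more than H3K4me3 did. It covered 26.9% of the right part in males and 23.7% in females, but 7.19% and 3.98% of the left part, beside 5.18% and 4.58% of the autosomes. Of the H3K4me3 peaks, all 21 in the right part of the male list and 20 of 21 in the female list overlapped an H3K27ac peak of the same sex. In the left part these were 15 of 24 and 10 of 21, below the autosomal shares of 88.5% and 81.7%.

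**Figure D1:**
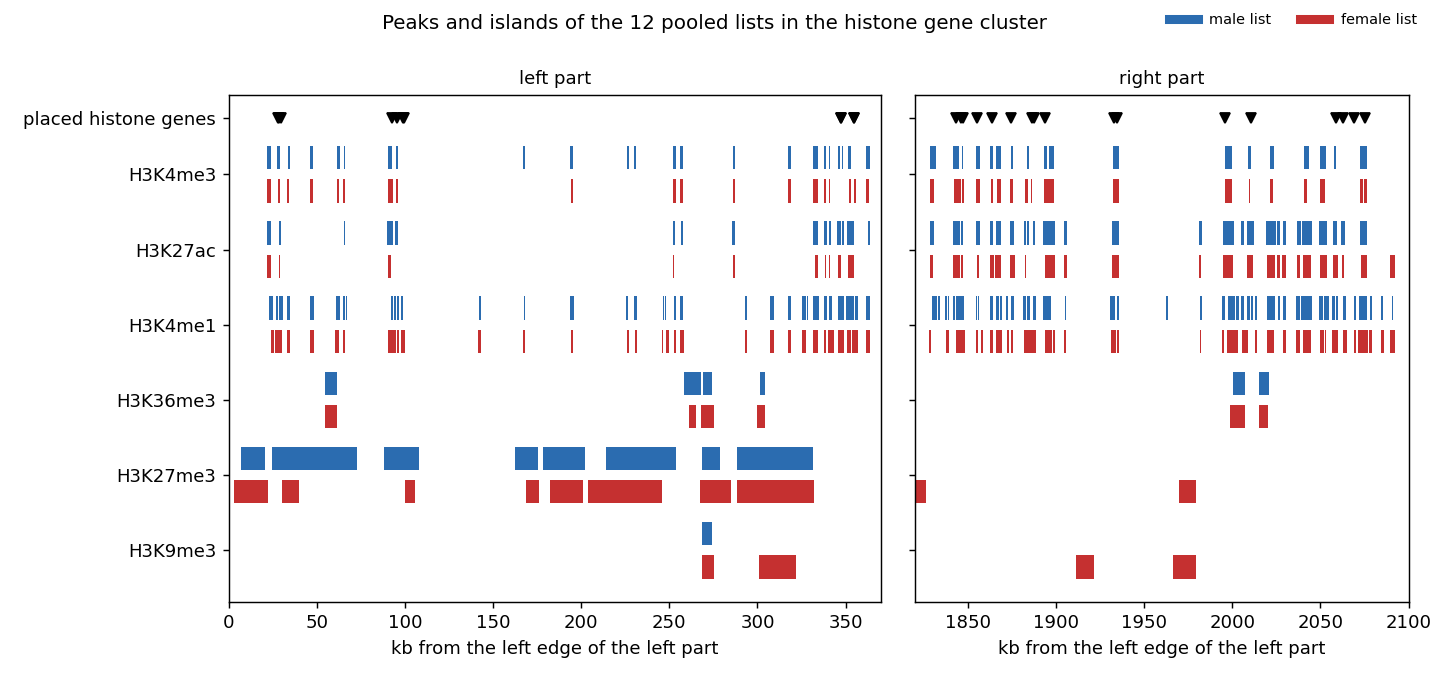
Peaks and islands of the male (blue) and female (red) lists along the left and right part, in kb from the left edge of the left part, with triangles at the 28 placed histone promoters. H3K27me3 islands fill much of the left part in both lists, while the right part holds 0 male and 2 female islands.

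H3K27me3 lay over the left part and was nearly absent from the right. Its islands covered 57.4% of the left part in the male list and 44.1% in the female list, against 23.6% and 24.2% of the autosomes. In the right part the male list had 0 islands. The female list had 2 there, 23547600-23605999, which enters from the segment between, and 23750000-23759599, which had no male partner, and together they covered 5.57%. Of the left H3K4me3 peaks, 15 of 24 overlapped an H3K27me3 island in the male list and 5 of 21 in the female list, against 14.5% and 16.6% over the autosomes. In the right part 0 of 21 did in either list.

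**Figure D2:**
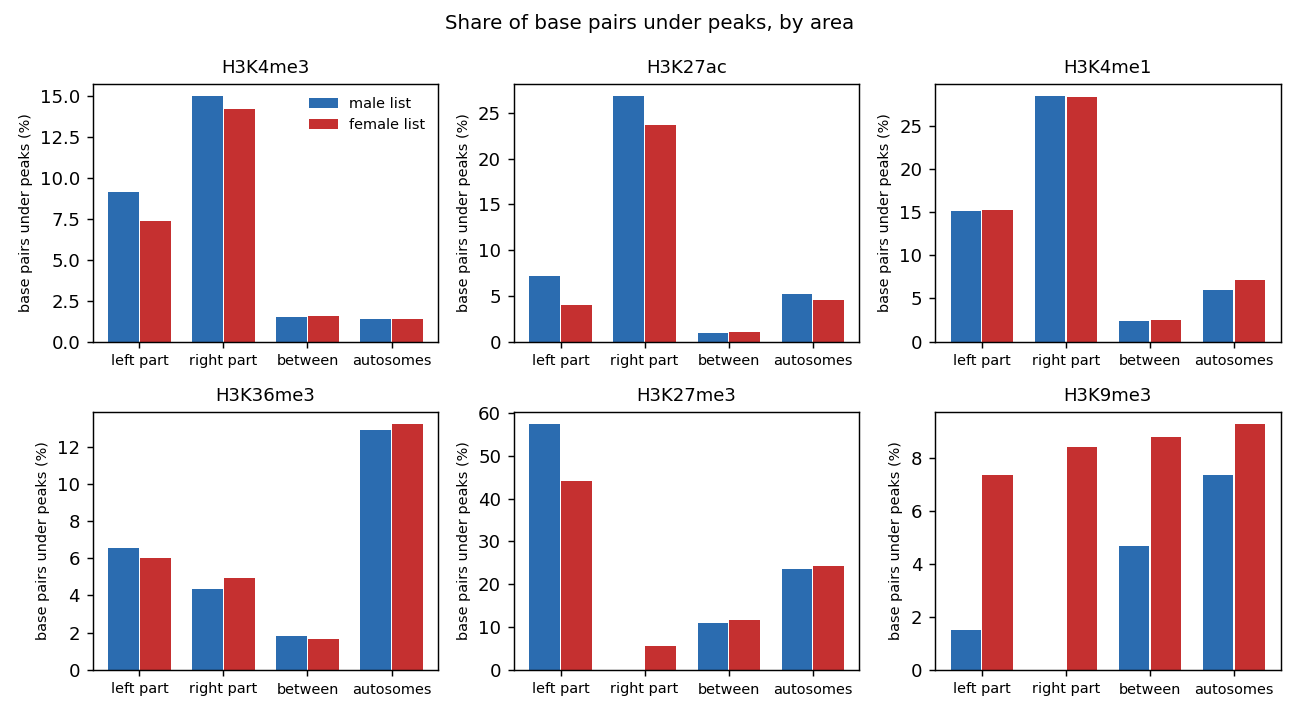
Percent of base pairs under peaks in the left part, the right part, the segment between and the autosomes, with 1 bar per pooled list (male blue, female red) and no error bar because lists have no replicates. H3K27ac reaches 26.9% and 23.7% in the right part, and H3K27me3 57.4% and 44.1% in the left part.

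The island with the most H3K27me3 reads, 22068400-22111599, held 2188 reads in the male list at a fold of 2.90 over control. Its female counterpart, 22068400-22111999, held 2783 reads at a fold of 3.63. It lies between the placed promoters of Zfp184, a zinc finger gene, and H2ac12, a stretch with 10 tRNA genes and 0 histone genes in the RefSeq order. Next in reads in the male list came 21804400-21852799 with 1386 and 21994000-22033999 with 1279. In the female list 21984000-22025599 held 1697 reads. The other left islands were 21786800-21800799, 21868000-21887999, 21942400-21955599, 21958400-21981999 and 22048800-22058799 in the male list. They held 400, 705, 410, 554 and 267 reads. The other female islands were 21782800-21801999, 21810400-21819999, 21880000-21885599, 21948400-21955999, 21962400-21981199 and 22047600-22064799. Those held 592, 307, 286, 333, 469 and 417 reads.

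Near the left end of the cluster, 2 male islands reached histone promoters that the female islands inside them did not. The male island 21804400-21852799, 48400 bp wide, took in H2bc13, H2ac13 and H3c10, and 21868000-21887999, 20000 bp wide, took in H1f5, H3c11, H2ac22 and H2bc22. The female islands 21810400-21819999 and 21880000-21885599 lay inside these 2, measured 9600 and 5600 bp, and lay over 0 placed histone promoters. At the leftmost pair the female island was the wider, 19200 against 14000 bp. Among promoters placed by a read of their own, 3 of 19 were in a male and 0 of 19 in a female H3K27me3 island, against 26.2% and 27.8% of all 11545 promoters placed alike. With shared reads accepted these were 7 and 0 of 28. All of them lie in the left part, where the male counts were 3 of 3 and, with shared reads, 7 of 11. In the authors' deposited table the log2 ratio of male over female was 0.62 (p = 2.28e-25) for 21804400-21852799 and 0.64 (p = 4.83e-14) for 21868000-21887999. Both are below the absolute log2 of 1 that the authors' calls ask for, besides a p under 0.001, and the p compares pooled reads, not animals. For the 2 female islands inside them the authors' deposited table gave 0.26 and 0.05.

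H3K36me3 and male H3K9me3 islands covered less of the cluster than of the autosomes, while female H3K9me3 was closer to its autosomal level. H3K9me3 covered 0.861% of the cluster in the male list, against 7.34% of the autosomes, and 7.82% in the female list, against 9.27%. It had 1 male island, 22048800-22054399 with 74 reads, which overlapped the female island 22048800-22055199 with 139 reads. The female list had 3 more without a male partner, 22080800-22101599 (227 reads), 23691200-23701599 (93 reads) and 23746400-23759599 (135 reads). The last of these overlapped the female H3K27me3 island that had no male partner. Over the autosomes, the female list also held more H3K9me3 islands, 17626 against 10875, and 60.3% of female islands and 38.99% of male islands had no partner, beside 3 of 4 and 0 of 1 here. H3K36me3 had 6 islands in each list, all 6 shared, where 19.2% of male and 6.99% of female islands over the lists had no partner. In the male list these were 21834600-21841399, 22038600-22048199, 22049200-22054199 and 22081600-22084399 on the left, with 211, 247, 231 and 101 reads, and 23780400-23786999 and 23795200-23800799 on the right, with 284 and 234 reads. They covered 5.60% and 5.54% of the cluster against 12.9% and 13.2% of the autosomes. H3K36me3 islands overlapped 1 of 45 male and 2 of 42 female H3K4me3 peaks of the cluster, against 26.1% and 24.9% over the autosomes. Called by the authors were 0 of these H3K36me3, H3K27me3 and H3K9me3 members, and over the whole lists the called shares per direction ran from 0.00525% to 3.42%.

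At the placed histone promoters, H3K4me3 was common but uneven. Of the 19 placed by their own read, 14 in the male list and 14 in the female list lay in an H3K4me3 peak (73.7%), against 42.5% and 42.9% of all 11545 promoters placed alike. H3K27ac peaks lay over 16 and 12 of the 19, against 45.7% and 44.7%. H3K4me1 peaks lay over 17 and 16, against 40.0% and 44.9%. Over the 28, H3K4me3 lay over 15 in both lists, 2 in the male list alone, 4 in the female list alone and 7 in neither. A wider H3K4me3 peak in 1 list can decide such a difference, since a promoter was counted when any of its 300 bases lay in a peak. With the better-scoring 50% of each list alone, 4 and 6 of the 19 lay in an H3K4me3 peak, against 31.3% and 34.4% of all placed promoters, so the higher share rested on the weaker peaks. Histone messages were not measured.

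All 3 placed linker histone promoters lay in H3K4me3 peaks of both lists. H1f4 lay in a peak of 593 tags in the male list and 506 in the female list, at 184 and 158 tags per kb. H1f5, in the left part, had 334 and 283 tags, and H1f1 had 92 and 119. In the authors' deposited table the male list ratios of these peaks were 0.20, 0.30 and -0.04, with 0 called. A second male peak, 23854326-23855427 with 60 tags, also reached the H1f1 promoter and stood at 0.90 in the authors' deposited table. The placed start of H2bc6 is an upstream one of its 2 starts in the promoter table, and it lies in the same peak as H1f4. A further strong peak, 23829976-23833300, with 652 male tags and 532 female tags in 23829990-23832845, lies between Hfe and H2bc3. There the RefSeq order lists H1f2 and H3c3, neither of which was placed by a read. At equal spacing in both builds the promoter of H1f2 falls within this peak in both lists, and that of H3c3 outside it.

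Among H2A genes, H2ac6 had the peak with the most tags in the male list, 696, and 310 tags in the female list. These peaks began 191 and 209 bp upstream of its start and run on towards H4c3. Between H2ac6 and H4c3 the RefSeq order lists H2bc4 and H1f6, neither of which was placed. The peaks cannot be given to H2ac6 alone. The male peak, 23776020-23779623, spans that female peak and a separate one of 38 tags. H2ac10 lay in a female peak of 391 tags that it shares with H4c8, and in the male list its start was 716 bp from the nearest peak. H2ac7 had 31 tags in the female list and no male peak. H2ac11 and H2bc11, a divergent pair, shared 50 female tags, and the nearest male peak was 1497 and 1746 bp away. H2ac13 and H2bc13, another pair, shared 42 male and 29 female tags. H2ac22 and H2bc22, H2ac12 and H2bc12, and H2ac4 lay in no H3K4me3 peak of either list. H2bc9 had 169 tags in each list, and H2bc3 had 85 in the male list, while the nearest female peak lay 5759 bp away.

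Among H3 genes, H3c6 had 109 male and 73 female tags, H3c11 84 and 35, H3c8 58 and 37, and H3c10 33 in the male list alone. H3c10 was also near a female peak, 510 bp from its start. H3c4 lay in none. Among H4 genes, H4c8 had 500 and 391 tags, H4c4 179 and 256, H4c3 159 and 74, and H4c6 81 and 71. H4c2 lay in none. The promoter of H4c8 overlaps that of the noncoding gene Gm11335, so its peak cannot be given to either alone. Each of the 4 core histone classes thus had placed promoters both with and without an H3K4me3 peak in the male list.

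Several strong H3K4me3 peaks lay where no histone promoter was placed by a read. To the left of H2bc13, 21801661-21803876 held 430 male tags, where the female list had 2 peaks of 229 and 105. Between Zfp184 and H2ac12, a stretch of 90.5 kb with 10 tRNA genes and 0 histone genes in the RefSeq order, 22065853-22067272 held 350 and 22111597-22114566 held 460 male tags. Their female counterparts held 247 and 378. To the right of H2bc11, 22141703-22143769 held 211 male tags and its female counterpart 189. In the right part, 23646116-23648891, between H4c6 and H3c6, held 290 male tags, and 268 lay in its female counterpart. The RefSeq order puts H1f3, which no read placed, between these genes. At equal spacing in both builds the promoter of H1f3 falls within this male peak. Between H4c4 and the placed start of H2bc6, 23676095-23679075 held 476 male tags and 23676082-23679065 held 408 female tags, and the other start of H2bc6 was not placed. The female tags were fewer at each of these 6 sites, and tags are not scaled to the depth of the lists.

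**Figure D3:**
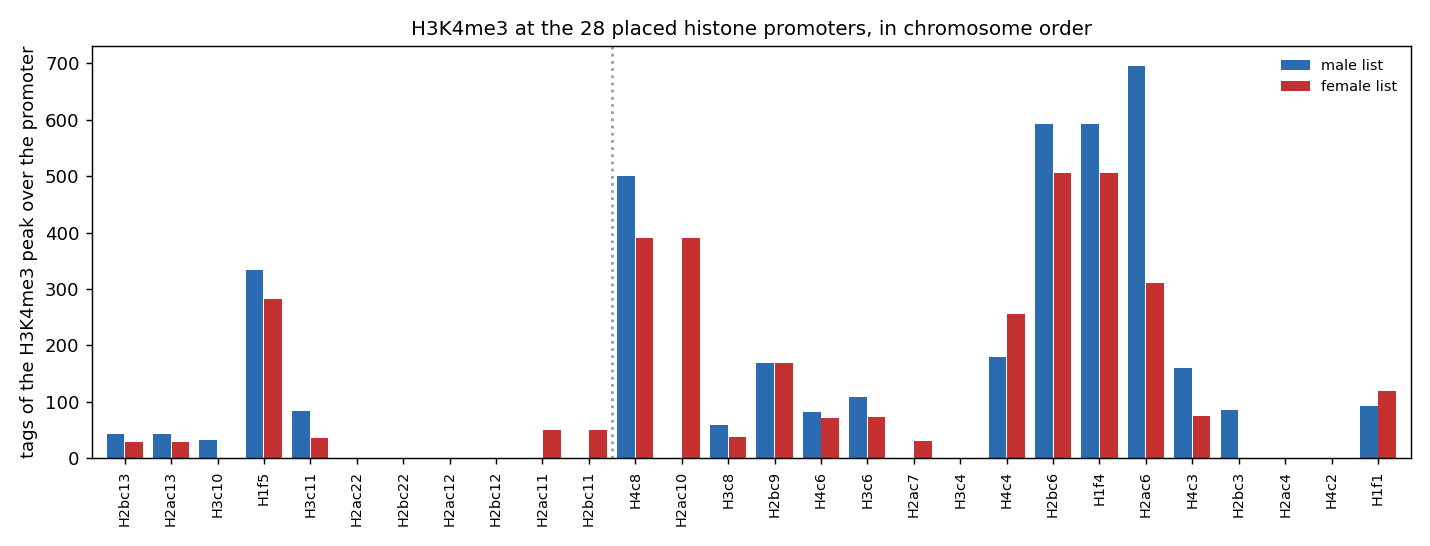
Tags of the H3K4me3 peak over each of the 28 placed histone promoters in chromosome order, male list in blue and female list in red, where a missing bar means no peak and the dotted line divides the left from the right part. H2bc6 and H1f4 share 1 peak, as do the pairs H2bc13 and H2ac13, and H2ac11 and H2bc11, and H4c8 and H2ac10 in the female list. H2ac6 has 696 male and 310 female tags, in peaks that cannot be given to it alone.

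H3K27ac differed between the parts at the promoters too. With shared reads accepted, 6 of 11 left promoters lay in a male and 0 of 11 in a female H3K27ac peak, and 14 and 13 of 17 right promoters did. The nearest female peak lay 259 to 524 bp from the starts of H2bc13, H2ac13, H3c10, H1f5, H2ac12, H2bc12, H2ac11 and H2bc11. From H3c11, H2ac22 and H2bc22 it lay 3167, 7018 and 7258 bp away. Where a peak ends can thus decide this count. H1f5 had 343 male H3K27ac tags and no female peak over its promoter, and H2ac12 and H2bc12 shared 361 male tags. In the authors' deposited table these 2 male peaks had log2 ratios of 0.13 and 0.41, with 0 called. The lists thus differed here in whether a peak was called over the promoter, at ratios below the level of a sex call. In the right part H4c4 had 953 male tags and no female peak over its promoter, at a ratio of -0.00 in the authors' deposited table. The nearest female peak lay 58 bp from its start. H2ac6 had 889 male and 499 female H3K27ac tags. The densest H3K27ac peaks of the male list were 22065734-22067281, 23819450-23825293 and 23799027-23804522, with 444, 1560 and 1430 tags, and the last of them spans the promoter of Hfe. Over the whole H3K27ac lists the tags are partly written with 3 significant digits, so they are approximate. H2ac4 and H2bc3 lay in H3K27ac peaks of both lists, with 211 and 101 tags and 423 and 287 tags, though H2ac4 had no H3K4me3 peak.

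Most H3K4me3 peaks of the cluster were weak by the standard of their lists. Their median density was 84.6 (male list) and 69.3 (female list) tags per kb, against 129 and 107 over the lists, and their median rank by the authors' score was at the 63.5 and 61.9 percentile, where 100 is the weakest. The 3 densest in the male list were 22065853-22067272 (246 tags per kb), 23829976-23833300 (196) and 21801661-21803876 (194). In the female list they were 21801758-21802652 (256), 22036318-22037870 (229), which lies over the placed promoter of Zfp184, and 22065879-22067150 (194). The least dense were 21808531-21809281 (43.9), 23820591-23821360 (44.2) and 22128119-22128772 (44.3) in the male list. In the female list they were 21808517-21808988 (40.3), 21813243-21814333 (42.2) and 23665613-23666337 (42.8). The densest peaks thus included a stretch with tRNA genes and Zfp184 rather than histone genes alone.

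The sex ratios of H3K4me3 in the cluster lay mostly above 0, towards males. In the authors' deposited table, log2 ratios of male over female were above 0 for 39 of 45 peaks of the male list and 32 of 42 of the female list, with medians of 0.42 and 0.24. Over the whole lists the authors' deposited table gave medians of 0.08 and -0.02. Of the male list, 7 of 45 members were called male, against 4.46% of the list, and of the female list 4 of 42, against 1.34%. Called female were 0 in either list, against 0.499% and 1.25%. Merged across the lists, the cluster held 45 H3K4me3 regions, of which 37 were in both lists, 6 male only and 2 female only, and 8 carried a male call (5 left, 3 right).

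Base composition moved with these ratios in both lists, and peak strength in the male list. Divided by the authors' score from best to weakest into 4 groups, the male list had median log2 ratios of -0.00, -0.02, 0.11 and 0.36 in the authors' deposited table, while the female list had -0.12, 0.02, 0.09 and -0.07. The 4, 8, 18 and 15 members in the male groups had higher medians, 0.26, 0.32, 0.41 and 0.54. So did the 2, 12, 18 and 10 members in the female groups, with 0.23, 0.18, 0.20 and 0.50. IgG reads within 1 kb of the members had a median GC content of 40.2% in either list, against 46.5% and 46.9% for all H3K4me3 peaks. When each list was divided by that GC content into 4 equal groups, the group lowest in GC had median log2 ratios of 0.29 (male list) and 0.06 (female list) in the authors' deposited table. The 32 and 31 members in that group had medians of 0.40 and 0.26. Among peaks that were both in the lowest GC group and in the weaker 50% of the male list, the authors' deposited table gave a median of 0.54 with 18.0% called male, and the 21 members there had a median of 0.42 with 5 called male. In the female list the median was 0.05 with 4.42% called male, and the 20 members there had 0.39 with 4 called male. Beside other weak peaks of low GC content, the members' median was thus lower in the male list and higher in the female list. The part of GC content and peak strength in the ratios was not tested further. How the authors scaled the ratios is not stated.

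The male-called H3K4me3 peaks lay in both parts. In the left part of the male list they were 21947165-21947989 (57 tags), 21973711-21975514 (160 tags), 22009981-22011338 (89 tags), 22125770-22126982 (80 tags) and 22131542-22133322 (207 tags). They stood at log2 ratios of 1.21, 1.01, 1.21, 1.50 and 1.40 in the authors' deposited table. The peaks of 57, 89 and 80 tags had no female partner, and that of 207 tags was also called in the female list, where 22132108-22133338 held 66 tags at 1.35 in the authors' deposited table. Those of 57, 160 and 89 tags lie between the placed promoters of H2bc22 and Zfp184, where the RefSeq order lists 6 histone genes and 21 tRNA genes. No read placed these 6 histone genes. At equal spacing in both builds their promoters fall between 21890000 and 21939999, where IgG reads were few. These peaks lie outside that stretch. Those of 80 and 207 tags lie on either side of the placed pair H2ac12 and H2bc12. The peak of 207 tags and its female counterpart lie between H2bc12 and H2ac11, where the RefSeq order lists H4c9, which no read placed. At equal spacing in both builds the promoter of H4c9 overlaps both of these peaks.

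In the right part the male list had 23608272-23611678 (378 tags) and 23837481-23838781 (85 tags), with ratios of 1.27 and 1.18 in the authors' deposited table. The former lies to the left of H4c8, and its 2 female counterparts, 23608594-23609106 and 23609111-23610970, with 22 and 111 tags, were called male as well, at 1.45 and 1.19 in the authors' deposited table. The latter lies over the promoter of H2bc3 and had no female peak. It reaches to the left of H2bc3, where the RefSeq order lists H3c3, which no read placed. At equal spacing in both builds it overlaps the promoter of H3c3 too. The female list added 23789263-23790290 (74 tags), next to H4c3, at 1.02 in the authors' deposited table. The male peak there, 23789134-23790428 (159 tags), stood at 0.93 and was not called. The peaks at H2ac6 were just short of a call too, with 0.94 in either list of the authors' deposited table. The male peaks without a female partner that were not called were 22006165-22006987 (42 tags, 0.90 in the authors' deposited table) and 22128119-22128772 (29 tags, 1.05). Peaks in the female list alone were 22134762-22135672, over H2ac11 and H2bc11, and 23665613-23666337, over H2ac7. In the authors' deposited table they stood at -0.36 and -1.29, and the second did not pass the p that a call needs (p = 0.0026). Over the H3K4me3 lists, 8.96% of male and 18.4% of female peaks had no partner, beside 6 of 45 and 2 of 42 here.

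**Figure D4:**
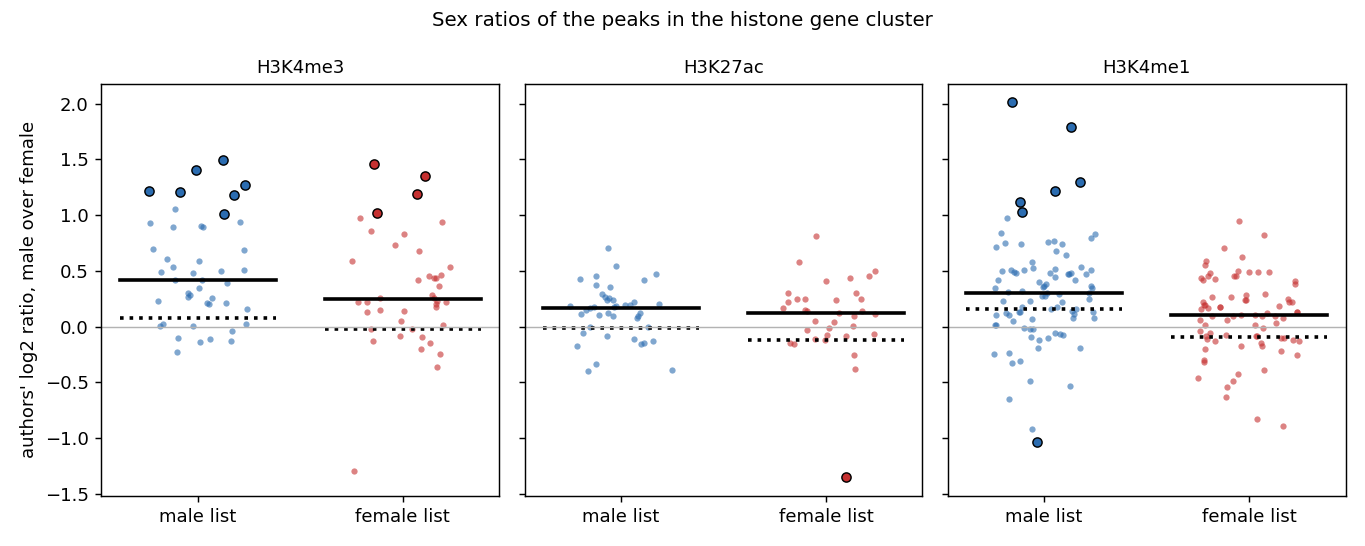
The authors' log2 ratio of male over female for each peak of the cluster, by mark and list, with called peaks ringed in black, the members' median as a solid line and the whole list's median as a dotted line. Solid lines lie above dotted ones in all 6 columns, and the H3K4me3 medians are 0.42 and 0.24 against 0.08 and -0.02.

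The enhancer marks showed a smaller shift and few calls. The H3K27ac members had median log2 ratios of 0.17 (male list) and 0.12 (female list) in the authors' deposited table, against -0.01 and -0.12 over the lists. Male calls numbered 0 of 42 in the male list, against 1.74%, and 0 of 35 in the female list, against 0.608%. Female calls numbered 0 of 42, against 0.861%, and 1 of 35, against 3.02%. The called peak, 23869677-23872295 with 144 female tags, stood at -1.35 in the authors' deposited table, had no male partner and lies to the right of H1f1. Of the 42 male H3K27ac peaks 9 had no female partner, 6 of them in the left part, and of the 35 female peaks 1 had no male partner. Over the whole lists 21.2% of male and 11.6% of female H3K27ac peaks had none.

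H3K4me1 had 92 male and 80 female peaks, with medians of 0.30 and 0.10 in the authors' deposited table against 0.16 and -0.09 over the lists. In the male list 6 of 92 were called male, against 8.21%, and 1 female, against 0.501%. In the female list 0 of 80 were called male, against 1.25%, and 0 female, against 3.88%. The male-called H3K4me1 peaks were 22107946-22108903, 23609611-23612257, 23621528-23622821, 23661230-23661925, 23805896-23807162 and 23832018-23834751. The authors' deposited table gave them ratios of 1.79, 1.22, 1.03, 2.01, 1.30 and 1.12. 23609611-23612257 overlaps the male-called H3K4me3 peak to the left of H4c8, and 23621528-23622821 reaches into the promoter of H4c8. The female-called one, 23855466-23856235, lies at the start of H1f1 and stood at -1.03 in the authors' deposited table. For H3K4me1 the lowest GC group of the male list had a median of 0.54 in the authors' deposited table, above the 0.34 of the 35 members in it. In the female list the group's median was 0.14 in the authors' deposited table, and that of its 36 members was 0.17. For H3K27ac the lowest GC group had medians of -0.00 (male list) and -0.17 (female list) in the authors' deposited table, below the 0.16 and 0.07 of the 24 and 18 members in it.

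The segment between the 2 parts was not uniform. Up to the last placed promoter of a Vmn1r gene, a family of vomeronasal pheromone receptors, it spans 1159 kb. That stretch held 0 male and 1 female H3K4me3 peak, 0 and 1 H3K27ac peaks and 3 and 0 H3K4me1 peaks. The remaining 291 kb before the right part held 12 H3K4me3 peaks in each list, and H3K4me3 covered 7.41% and 7.62% of it. H3K27me3 covered 40.7% and 46.6% of the same stretch. Of 16 placed Vmn1r promoters 0 lay in a peak of H3K4me3, H3K27ac or H3K4me1 in either list. The scarcity of active marks between the parts was thus seen over the receptor stretch and not over the stretch next to the right part. IgG coverage differed between these stretches too. Of 115 whole 10-kb bins in the receptor stretch 9 held 0 reads and 32 were under 0.5 times the autosomal density, against 0 and 3 of 29 bins after it. The part of coverage in this scarcity was not tested.

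Read coverage sets a limit in a cluster of near-identical genes. The IgG library had 1.02 times the autosomal read density over the cluster, 0.92 over the left, 1.16 over the right part and 0.75 over the segment between. Within the left part 50 kb from 21890000 to 21939999 held 46 IgG reads, where 224 would match the autosomal mean, and 2 of its 10-kb bins held 0. No promoter was placed there, and across the 12 lists it held 2 peaks, both of H3K4me1. The RefSeq order lists 6 histone genes between H2bc22 and Zfp184 (H2bc23, H2ac23, H4c17, H4c18, H2ac24 and H4bc24). No read placed them, and at equal spacing in both builds their promoters fall in these 50 kb. The absence of peaks from that stretch is thus not a measurement of them. How reads with several matching places were handled is not stated.

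Outside the cluster, the placed promoters of H2ac20, H3c13 and H2bc18 on chromosome 3 lay in H3K4me3 and H3K27ac peaks of both lists, and H2ac19 lay in H3K27ac but in no H3K4me3 peak. The histone variant genes H3f3a and H2az2, whose expression is not tied to replication, lay in both marks as well. The hepatocyte genes Alb and Apoa1 did so too, in both lists. Of markers of other or cycling cells, Top2a lay in H3K4me3 peaks of both lists and in an H3K27ac peak of the male list alone. Ptprc, a leukocyte gene, lay in H3K27ac peaks of both lists, in an H3K27me3 island of the female list and in no H3K4me3 peak. Cd79a, of B cells, lay in no peak of any mark. Clec4f, a gene of Kupffer cells, lay in H3K27me3 and H3K9me3 islands of both lists. Other listed markers were not placed. Signal from dividing or blood cells in whole liver and signal from hepatocytes cannot be told apart in these lists, and their part in the histone promoter peaks was not tested.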

How the data were processed

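The data were 12 pooled peak lists (6 marks, male and female), 1 per mark and sex, and 1 control IgG library, a male liver library of an earlier record with 11201113 aligned reads of 35 bases. Per the submitters' processing notes, Bowtie and SICER 1.1 were used on build mm9. Per the labels, SICER windows and gaps were 400 and 2400 bp for H3K27me3 and H3K9me3 and 200 and 800 bp for H3K36me3. The other 3 marks have the columns of MACS peaks, and the version of their caller is not stated in the sources.

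Read and tag counts per peak or island are whole numbers deposited by the authors, not scaled to depth, and those of H3K27ac are partly written with 3 significant digits. Per the file headers, the other deposited values are a fold ratio over control, an FDR in percent, a peak score derived from the log10 p-value, and the p-values of islands. The deposited log2 ratio of male over female, its p-value and the call are the authors' own. In all 384017 peaks the call equals an absolute log2 of at least 1 with a p under 0.001.

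Members were peaks overlapping either part by 1 bp or more. RefSeq promoters were placed on mm9 by IgG reads found whole in 1 promoter, and of 12653 placed over the genome 12647 fell on the chromosome of the table. Covered shares, medians and counts were computed in Python 3.11.15 with pandas 2.3.3, with functions tested on simulated data. IgG density is reads per kb over the autosomal mean of 4.48, and 37.2% of autosomal reads repeat a position and strand. Depth of the pooled libraries is unknown, so counts of peaks carry no interval. The members and gene lists were chosen with earlier results of these data known. Values were named for the 3 densest and 3 least dense H3K4me3 peaks of each list, called peaks, H3K4me3 peaks of 1 list alone and all repressive islands. Sex chromosomes and the remaining IgG libraries were not used here.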

Additional observations from a re-analysis of the deposited data

How the results depend on the processing

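No paired analysis was possible because each mark and sex has 1 pooled list. For the same reason no library could be left out. With the better-scoring 50% of each list alone, the cluster held 167 members in place of 371. H3K4me3 then covered 4.87% and 5.11% of it (male and female list) in place of 11.7% and 10.3%, and 21.1% and 31.6% of the 19 placed histone promoters lay in H3K4me3 in place of 73.7%. A call threshold of 1.5 times on the ratio in the authors' deposited table, with the same p, gave 33 male and 4 female calls in place of 17 and 2. Centring those ratios on peaks shared by both lists gave 14 and 2, and H3K4me3 medians of 0.38 and 0.21. The shares of whole lists called under these 2 settings were not computed, so these counts cannot be set against the lists. Counting peaks with at least 50% of their length inside gave 370 members, and intervals widened by 20 kb gave 399. Accepting shared reads, an alternative chosen after seeing the data, put 60.7% and 67.9% of 28 histone promoters in H3K4me3. A peak within 1 kb of the start, also chosen after seeing the data, gave 78.9% of 19 in either list. With at least 2 reads at different positions 8 promoters were placed, and 5 and 6 of them lay in H3K4me3. One IgG read per position and strand gave a relative density of 1.04 in place of 1.02. Over all 203 values recomputed, 155 stayed within 1.5 times (or the 95% interval) of the value given and 48 moved. Only the median log2 ratios could change sign, and 0 of them did.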
